A study of Mus musculus with 24 samples.

Results

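The 10 genes Cxxc1, Cxxc4, Cxxc5, Kdm2a, Kdm2b, Fbxl19, Tet1, Tet3, Dnmt1 and Mbd1 were followed through a map of H3K4me3, the trimethylation of lysine on histone H3 that marks active and poised gene starts, in C127 cells. They were chosen by name, as genes for proteins with a CXXC domain or a related means of binding CpG dinucleotides, and are 10 of the 21755 protein-coding genes in the annotation used. C127 is a mouse mammary epithelial cell line, and its chromatin was crosslinked with formaldehyde before ChIP. The H3K4me3 ChIP was made from unmodified C127 cells in 3 replicates with 1 input, and the series held 24 samples in 12 groups. The other 21 samples, of CFP1, KDM2B, RNA polymerase II and controls, were left aside.

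The values were the positions of 13451 peaks that were present in every replicate, of which the 13447 on the 19 autosomes and X were analysed. This single list gives no height for a peak, so the results below have no spread between replicates, no test was possible between samples, and the read depth behind a peak is unknown. A peak was at a gene when it came within 250 bp of an annotated transcription start site (TSS) of the gene, and TSSs of a gene closer than 500 bp to one another were joined as 1 promoter. A promoter with such a peak is called marked. The label of the cells was set against lists of marker genes. Of the luminal mammary list, 2 of 9 genes had a peak at a TSS (Gata3 and Esr1), and Krt8, Krt18, Krt19, Epcam, Cdh1, Cldn4 and Elf5 had none. None of the 4 basal mammary markers, the 4 immune markers and the 4 embryonic stem cell markers had a peak at a TSS, whereas 6 of 6 mesenchymal markers did. Among the markers without a TSS peak, Cdh1 and the basal marker Krt14 had 1 peak each inside the gene. C127 cells thus had the mark at the TSSs of the mesenchymal markers. They lacked it at the TSSs of most of the epithelial markers tested, although the line is labelled epithelial.

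The CXXC domain is a small zinc-binding fold that recognises CpG without methylation, and it brings chromatin enzymes to CpG islands, the CpG-rich stretches at which many genes start. CFP1, the product of Cxxc1, is a subunit of the SET1 complexes that write H3K4me3. KDM2A, KDM2B and FBXL19 are related F-box proteins, of which the KDM2 pair also carry a histone demethylase domain, and KDM2B brings a variant Polycomb complex (PRC1.1) to islands. TET1 and TET3 oxidise methylated cytosine, DNMT1 copies methylation onto newly replicated DNA, MBD1 binds methylated CpG through one domain and CpG without methylation through a CXXC domain, and CXXC4 and CXXC5 are small proteins that are known to act on WNT signalling.

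Stretches of 60 bases show what some of the promoters and peaks compared below look like as sequence. They were read from the GRCm38.p6 reference (mm10), 5′ to 3′ on the strand of the gene, with each CpG in capitals. For a promoter the stretch is the nearest one upstream of its first TSS that no annotated exon overlaps, and for a peak inside a gene it is the middle of the peak.
Tet3 upstream promoter, with a peak, chr6:83456468-83456527, minus strand: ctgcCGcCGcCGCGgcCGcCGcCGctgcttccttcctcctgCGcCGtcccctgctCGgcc
Tet3 downstream promoter, with a peak, chr6:83441679-83441738, minus strand: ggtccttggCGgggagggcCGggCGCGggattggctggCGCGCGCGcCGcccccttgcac
Kdm2b internal promoter, with a peak, chr5:122900368-122900427, minus strand: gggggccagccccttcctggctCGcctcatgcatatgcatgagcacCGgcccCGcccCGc
Dnmt1 downstream promoter, with a peak, chr9:20952980-20953039, minus strand: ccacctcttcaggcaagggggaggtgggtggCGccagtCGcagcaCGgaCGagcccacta
Dnmt1 upstream promoter, without a peak, chr9:20959889-20959948, minus strand: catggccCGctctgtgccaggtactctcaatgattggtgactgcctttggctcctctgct
Tet1 upstream promoter, without a peak, chr10:62899119-62899178, minus strand: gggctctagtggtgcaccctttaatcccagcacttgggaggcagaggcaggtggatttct
Cxxc4 promoter, without a peak, chr3:134236084-134236143, plus strand: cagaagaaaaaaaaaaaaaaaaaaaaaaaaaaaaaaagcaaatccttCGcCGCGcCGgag
Kdm2a, middle of the peak in intron 12, chr19:4333023-4333082, minus strand: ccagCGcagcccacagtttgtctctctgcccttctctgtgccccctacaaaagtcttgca
Dnmt1, middle of the peak in intron 1, chr9:20945041-20945100, minus strand: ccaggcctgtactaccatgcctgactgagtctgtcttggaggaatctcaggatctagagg
The Tet3 stretches held 10 and 9 CpGs and the internal Kdm2b promoter held 4. The downstream Dnmt1 promoter held 4 CpGs against 1 at the upstream one, which had no peak. At Cxxc4, 4 CpGs followed a run of adenines, 348 bp upstream of the first TSS, and the promoter was unmarked. The upstream Tet1 stretch and the middle of the Dnmt1 intronic peak held 0 CpGs. Marked promoters whose stretches are not shown varied more. The second Kdm2a promoter held 7 CpGs, the third of Kdm2b 6 and the third of Fbxl19 3. The stretch shared by the first and second Kdm2b promoters held 1. The first Kdm2a promoter and the first, second and last of Fbxl19 held 0, so a marked promoter need not have CpGs in these 60 bases. Over all 28328 promoters of coding genes, the 60 bases just upstream held a median of 2 CpGs (quartiles 0 and 5), and 72.7% had at least 1. Those bases lie directly next to the TSS and were not moved past exons, so they are not a like measure of the stretches above.

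Of the 10 genes, 8 had an H3K4me3 peak at a TSS, and Cxxc4 and Tet1 had none. Over all coding genes 49.4% had such a peak, and among the 14808 coding genes with a CpG island within 250 bp of a TSS the share was 70.2%. The 10 genes had 28 annotated transcripts that start at 27 TSSs, which formed 20 promoters. Of these promoters, 16 were marked, under 10 distinct peaks, and 4 were not. Over all coding genes, 11955 of 28328 promoters were marked. The unmarked ones among the 10 genes were the promoter of Cxxc4, both promoters of Tet1 and the upstream promoter of Dnmt1. The first TSS of each of the 16 marked promoters lay inside its peak, at 0 bp, while the unmarked promoter nearest to a peak lay 6432 bp from it, so no promoter of these genes came close to the limit of 250 bp.

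**Figure D1:**
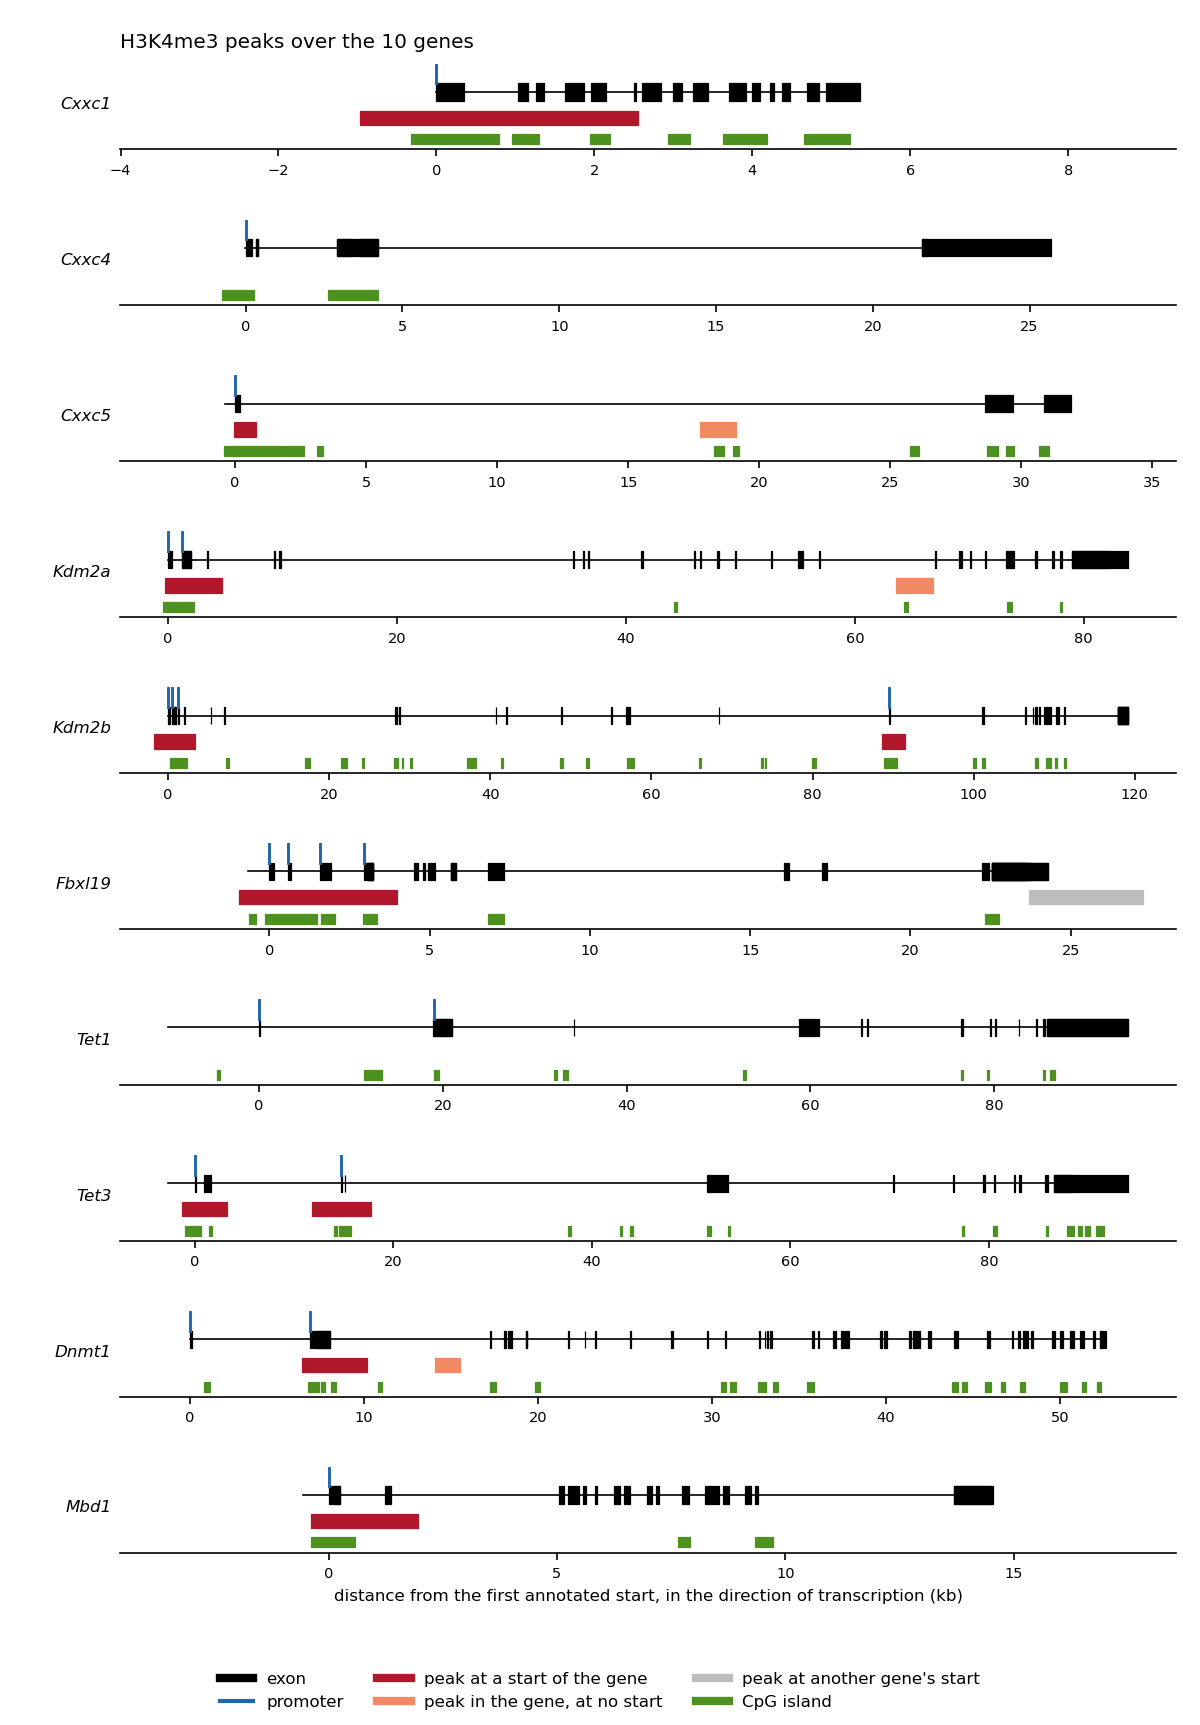
Maps of the 10 genes on the direction of transcription, each on its own scale in kb from the first TSS of the basic annotation. Black boxes are exons, blue ticks are promoters, red bars are H3K4me3 peaks at a TSS of the gene, orange bars are peaks inside the gene at no TSS, the grey bar is a peak at the TSS of another gene, and green boxes are CpG islands. Cxxc4 and Tet1 carry no peak, Kdm2b and Tet3 carry 2 separate red bars, and Cxxc5, Kdm2a and Dnmt1 carry an orange bar each.

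Cxxc1, which codes for the CpG-binding subunit of the SET1 complexes, had 1 promoter and 1 peak of 3527 bp at chr18:74215157-74218683. The peak was wider than that of 58.0% of the 10747 coding genes with a TSS peak, when each gene is represented by its widest one. It reached 974 bp upstream and 2552 bp downstream of the TSS, and it covered 47.6% of this short gene of 5373 bp. The island at the TSS was 1115 bp long and lay wholly under the peak, as did 2 further islands inside the gene. Another 3 islands nearer its 3′ end had no peak.

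Mbd1 lies on the same chromosome and strand, 46108 bp downstream of Cxxc1. Its peak of 2343 bp at chr18:74267780-74270122 was among the narrower ones, wider than that of 23.2% of marked genes. It covered the island of 958 bp at the promoter. The 2 annotated transcripts start within 116 bp of each other and code for proteins of 588 and 644 residues. A CXXC motif was searched in each translated protein as a pair of triplets of cysteines, each cysteine 2 residues from the next, with 4 to 6 residues between the triplets. It was found 2 times in the shorter MBD1 protein and 3 times in the longer one, and both transcripts share the peak.

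Among the F-box genes, all 10 promoters that Kdm2a, Kdm2b and Fbxl19 have in the basic annotation were marked, and the widest peak of each gene was close to 5 kb. Kdm2a had 1 peak of 4950 bp at chr19:4393583-4398532, wider than 84.9% of marked genes. Both of its promoters, 1205 bp apart, lay under it. The peak reached 247 bp upstream of the first TSS and 4702 bp downstream. Its island of 2387 bp was covered to 91.3%, because the peak ended before the upstream end of the island.

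Kdm2b had peaks at both ends of a long stretch of the gene. The upstream one, of 5115 bp at chr5:122986482-122991596, was wider than 86.8% of marked genes and lay over 3 promoters within 1290 bp. The downstream one, of 2741 bp at chr5:122898400-122901140, was wider than 34.8%. It lay at the start of the transcript Kdm2b-201, which is 89468 bp downstream of the first TSS, and 85341 bp without a peak separated the pair. Kdm2b-201 codes for a protein of 776 residues, against 1254 to 1309 for the transcripts of the upstream promoters. Its last 758 residues match the end of the longest protein, and the CXXC motif lies at residue 53 in place of residue 586. The KDM2 demethylase domain lies ahead of the CXXC domain, and a short form of KDM2B that keeps the CXXC domain without the demethylase is known. The downstream promoter was also the most CpG-rich of the 20, with 75 CpGs within 250 bp of the TSS, and its island of 1664 bp lay wholly under the narrower of the peaks.

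The 3 upstream Kdm2b promoters differed in sequence although 1 peak covered them. The first had 12 CpGs and no island within 250 bp, the lowest CpG count at any marked promoter of the 10 genes. The second had 39 CpGs with an island of 545 bp, and the third had 25 CpGs with an island of 739 bp. The lncRNA gene A930024E05Rik starts on the opposite strand 48 bp upstream of the second promoter, under the same peak. Starts outside the basic annotation had a peak for Kdm2b at 9 of 24, for Kdm2a at 7 of 12 and for Fbxl19 at 5 of 6. For the other marked genes the counts were 7 of 8 at Tet3, 5 of 7 at Mbd1, 4 of 5 at Cxxc1, 3 of 5 at Dnmt1 and 3 of 9 at Cxxc5. The share of such starts over all coding genes was not computed, so these counts are description only. The start of the coding transcript Kdm2b-214, between the peaks, had 40 CpGs and an island of 1099 bp but no peak. Because the list gives no heights and no strand, the mark of the lncRNA and of Kdm2b cannot be told apart in the upstream Kdm2b peak.

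Fbxl19 had 4 promoters over 2946 bp, all of them under 1 peak of 4911 bp at chr7:127744267-127749177, wider than 84.6% of marked genes. The promoters had 24, 26, 34 and 22 CpGs, each with an island. The transcript Fbxl19-202, from the second promoter, codes for 382 residues and lacks the CXXC motif. The longest protein, of 674 residues from the first and the third promoter, has the motif at residue 19. With every promoter under 1 peak, the list does not separate the starts that give a protein with the motif from the start that does not. A further peak of 3560 bp touched the last exon of Fbxl19, exon 11. It lay at the TSS of the neighbouring gene Orai3, which codes for a calcium channel, and was not counted as a peak of Fbxl19.

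The TET genes differed from one another. Tet3 had a peak at both of its promoters, which lie 14717 bp apart with 8554 bp free of peaks in between. The upstream peak was 4537 bp wide (chr6:83453171-83457707), wider than 79.3% of marked genes, and lay at the start of Tet3-203, whose protein of 1803 residues has the CXXC motif at residue 57. The downstream peak was 6002 bp wide (chr6:83438615-83444616), wider than 92.6%, and was the widest at any TSS of the 10 genes. It lay at the start of Tet3-202, whose protein of 1668 residues has no CXXC motif and is otherwise the end of the longer one. Both forms of TET3, with and without the CXXC domain, thus had a marked start in C127 cells. The upstream promoter had 67 CpGs and an island of 1630 bp, against 41 CpGs and an island of 526 bp at the downstream promoter, so the wider peak was at the less CpG-rich start. The lncRNA gene B230319C09Rik starts on the opposite strand 80 bp upstream of Tet3-202, and the downstream peak lies at both starts.

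Tet1 had no peak at either promoter. The upstream one (Tet1-206) had 7 CpGs, no island, and lay 20456 bp from the nearest peak, which was at the TSS of Slc25a16. The downstream one (Tet1-201) had 20 CpGs, an island of 552 bp, and lay 39560 bp from the same peak. Starts outside the basic annotation did not change this. The comprehensive GENCODE set and RefSeq add 11 further Tet1 starts, of which 0 had a peak, and the nearest to a peak was 10578 bp away. The most CpG-rich of these starts, that of Tet1-207, had 31 CpGs. It lay in the longest island of the gene, of 1587 bp, so Tet1 has a large island at a start without a peak. The annotated start of Tet1-201 is also the start of its coding sequence, so that transcript has no 5′ untranslated part. None of the 12 islands that overlap the gene had a peak. TET1 is known for its high level in embryonic stem cells. The stem cell markers in the list above had no peak, and whether this is related to the lack of a Tet1 peak was not tested.

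Dnmt1 had 1 marked and 1 unmarked promoter. The downstream promoter, at which 3 transcripts start within 374 bp, had a peak of 3774 bp at chr9:20949683-20953456, wider than 64.4% of marked genes. The peak reached 477 bp upstream and 3296 bp downstream of the TSS. The upstream promoter, 6909 bp away, is the start of Dnmt1-202 only, and mouse Dnmt1 is known to have an upstream promoter that is used in oocytes. It had 4 CpGs, no island and no peak within 6432 bp, and it codes for a protein of 1501 residues. The marked promoter gives proteins of 1620 residues from Dnmt1-201, 1501 from Dnmt1-203 and 1502 from Dnmt1-207, so the shorter protein is not particular to the upstream start. The marked promoter had 29 CpGs and an island of 641 bp. The CXXC motif was in the proteins of all 4 transcripts.

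The small CXXC genes differed too. Cxxc5 had the narrowest TSS peak of the 8 marked genes, of 822 bp at chr18:35829762-35830583, wider than only 1.56% of marked genes. The peak began 26 bp upstream of the TSS and ended 795 bp downstream. The island there was 2147 bp long, and the peak covered 38.3% of it, whereas the islands at the other marked promoters were covered to 91.3% or more. The promoter was CpG-rich, with 55 CpGs. Cxxc4 had an island promoter without a peak. It had 33 CpGs and an island of 1013 bp, with a second island of 1599 bp in the gene, and the nearest peak was 634974 bp away. Of the 9799 promoters of coding genes with at least 33 CpGs, 80.5% had a peak, and of the 13705 with at least 20 CpGs, as at the downstream Tet1 promoter, 75.4% did. A further 7 Cxxc4 starts from the comprehensive set and RefSeq had no peak.

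Marked promoters were mostly richer in CpG than unmarked ones, with exceptions. Within 250 bp of the first TSS, the 16 marked promoters had 12 to 75 CpGs with a median of 40, and the 4 unmarked ones had 4, 7, 20 and 33. The ranges overlapped from 12 CpGs, at the first Kdm2b promoter, to 33, at Cxxc4. Between these lay further marked promoters of Fbxl19, Kdm2b and Dnmt1, with 22 to 29 CpGs, and the unmarked downstream Tet1 promoter with 20. Over all coding genes the median was 39 CpGs (quartiles 28 and 51) at 11955 marked promoters and 7 (quartiles 3 and 16) at 16373 unmarked ones. An island lay within 250 bp of 15 of the 16 marked promoters and of 2 of the 4 unmarked ones. Over all coding genes an island was present at 93.6% of marked and 32.8% of unmarked promoters. With stricter islands, of at least 500 bp, the counts were 11 of 16 and 1 of 4, beside 80.4% and 16.7% over all coding genes.

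**Figure D2:**
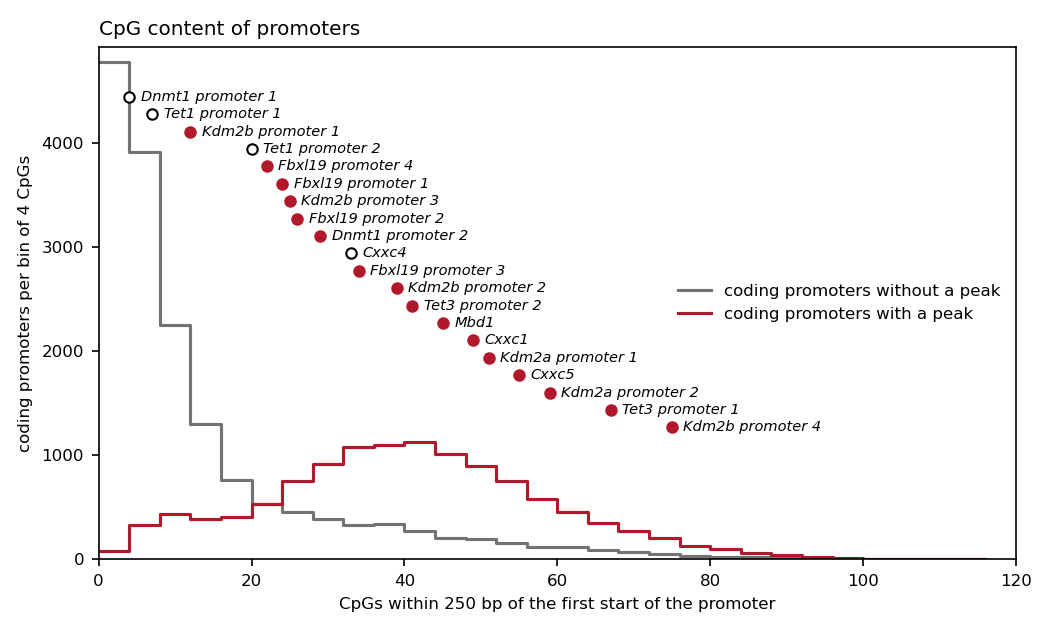
CpGs within 250 bp of the first TSS of a promoter on the x axis. Lines give the number of coding promoters in bins of 4 CpGs, red with a peak and grey without, on the y axis. Points are the promoters of the 10 genes, filled with a peak and open without, set at arbitrary heights in order of CpG count. Open points stand at 4, 7, 20 and 33 CpGs and filled ones between 12 and 75.

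Among alternative promoters of the basic annotation, most were marked. Of the 6 genes with several promoters, which had 16 promoters together, 13 promoters were marked. Over all coding genes with several promoters the share was 30.0% of 11863 promoters. With the starts of the comprehensive set and RefSeq added, the 10 genes had 56 promoters, of which 20 were marked, so most promoters of this fuller set had no peak. The share over all coding genes was not computed for the fuller set. In Kdm2a, Kdm2b and Fbxl19 the marked promoters included neighbours under 1 peak, so their marks are not separate observations. Counted by peaks, 2 of the 6 genes (Kdm2b and Tet3) had TSSs in 2 separate peaks, against 5.35% of the 5290 coding genes with several promoters. Without Tet1, which had no TSS peak, this was 2 of 5 genes, against 12.0% of the 2355 coding genes with several promoters and any TSS peak.

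Widths differed widely among the 8 marked genes. The widest TSS peak of a gene ran from 822 bp at Cxxc5 to 6002 bp at Tet3, with a median of 4342.5 bp. The median over 10747 coding genes was 3254 bp, with quartiles of 2410.5 and 4258 bp. Of the 8 genes, 6 were above that median, and Cxxc5 and Mbd1 were below it. The wide peaks of Kdm2a, Kdm2b and Fbxl19 each lay over several promoters, and that of Tet3 lay over a pair of opposed starts. Of the genes with 1 promoter, Cxxc1 had the widest, at 3527 bp.

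**Figure D3:**
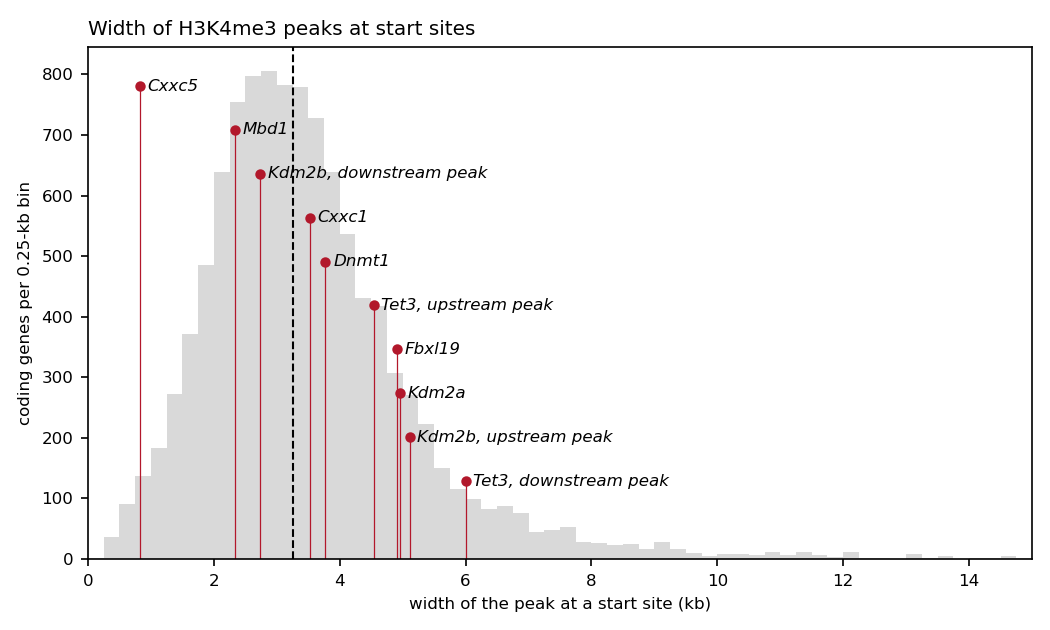
Width in kb of H3K4me3 peaks at TSSs on the x axis, shown up to 15 kb. Grey bars count coding genes by the width of their widest TSS peak in bins of 0.25 kb, the dashed line is their median of 3254 bp, and red points mark the 10 TSS peaks of the 8 marked genes at arbitrary heights. Cxxc5 stands apart at 822 bp, and 5 peaks of Kdm2a, Kdm2b, Fbxl19 and Tet3 stand between 4537 and 6002 bp.

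All 10 TSS peaks reached further downstream than upstream of the first TSS under them, as did those of 83.5% of marked coding genes. Counted from each marked promoter in place of the first TSS under the peak, 13 of 16 reached further downstream. The exceptions were later promoters under a shared peak, the third of Kdm2b and the last pair of Fbxl19. Upstream reach was lowest at Cxxc5, with 26 bp, and at Kdm2a, with 247 bp. It was highest at the peaks that also hold the start of a lncRNA on the opposite strand, with 2941 bp at the downstream Tet3 peak and 1773 bp at the upstream Kdm2b peak. The lncRNA start lies 80 bp upstream of the Tet3 promoter, but 469 bp downstream of the first Kdm2b TSS. The third highest reach was that of the upstream Tet3 peak with 1315 bp, which holds no start of another gene in the basic annotation. RefSeq adds Tet3 starts under it that lie further upstream, up to 83457208, from which the reach would be shorter. The median over marked coding genes was 940 bp upstream and 2138 bp downstream. Downstream reach was above that median at 7 of the 10 peaks and below it at Cxxc5, at Mbd1 with 1947 bp and at the internal Kdm2b promoter with 1955 bp.

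**Figure D4:**
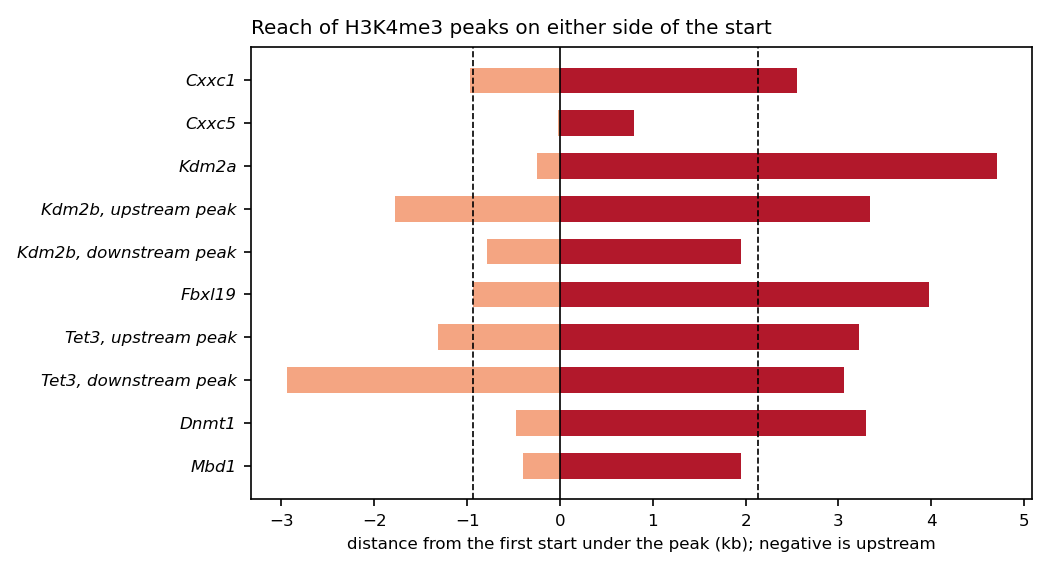
Reach in kb of the 10 TSS peaks from the first TSS under each peak, upstream to the left in light colour and downstream to the right in red. Dashed lines are the medians over marked coding genes, 940 bp upstream and 2138 bp downstream. Every bar is longer to the right, and the downstream Tet3 peak is nearly even with 2941 and 3060 bp.

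Cxxc5, Kdm2a and Dnmt1 also had a peak inside the gene and away from every annotated TSS of the basic set. Such a peak was present in 3 of the 8 marked genes, against 9.10% of 10747 marked coding genes. Long genes have more room for one. The shortest of the 3, Cxxc5, is 32292 bp long, and 5 of the 8 genes are at least that long. The limit was set by that gene, so the 3 pass it by construction. Among 4305 marked coding genes of that length or more the share was 16.6%.

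The Kdm2a peak was the widest of these, with 3199 bp in intron 12 (chr19:4331453-4334651). It held 3 starts that the basic annotation leaves out, those of Kdm2a-210 at 4333919 and Kdm2a-212 at 4334001 in the comprehensive set and a RefSeq start at 4334139. The coding exons downstream of it hold 668 of the 1161 residues of KDM2A, the CXXC motif included. The protein annotated for Kdm2a-212 has 292 residues with the motif, and is not an unbroken part of the longest KDM2A protein. A short form of KDM2A without the demethylase domain is known, as for KDM2B. With these starts counted, Kdm2a joined Kdm2b and Tet3 as a gene with separate TSS peaks, and the genes with a peak away from any start fell to Cxxc5 and Dnmt1.

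The Cxxc5 peak of 1383 bp (chr18:35847523-35848905) lay in intron 1, 18426 bp from the TSS, and was wider than the peak at the TSS itself. It overlapped 2 small islands. The coding sequence of Cxxc5 lies wholly downstream of it. The Dnmt1 peak of 1400 bp (chr9:20944371-20945770) lay in intron 1 of Dnmt1-201 and overlapped no island. Its middle was 14818 bp from the first TSS of the gene, that of the unmarked upstream promoter. It was closer to the marked start of Dnmt1-201 at 20952979. The Dnmt1 intronic peak held 13 CpGs, or 9.29 per kb, against 13.4 per kb in the Kdm2a intronic peak and 30.4 per kb in that of Cxxc5. In the 10 TSS peaks the density ran from 22.0 to 124 per kb, so the Dnmt1 and Kdm2a intronic peaks were less CpG-dense than any of them. No start of the comprehensive set or of RefSeq lay at the Cxxc5 or Dnmt1 intronic peak.

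Islands inside the genes were mostly without the mark, at a share like that over all marked coding genes. Islands from 200 bp up were counted, and most of those without a peak in the marked genes were shorter than 500 bp. The share was not computed for the stricter islands. The 8 marked genes overlapped 98 islands, of which 26.5% overlapped a peak, and over all marked coding genes the share was 25.3% of 62040 islands. Kdm2b had the most, with a peak at 4 of 29. Dnmt1 had a peak at 3 of 20, Tet3 at 5 of 18 and Cxxc5 at 3 of 10.

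The genes for partners and relatives of these proteins were nearly all marked. Of 44 genes in 6 lists, 41 had a TSS peak, and their median width was 3559 bp. Both other CXXC-domain genes, the H3K4 methyltransferases Kmt2b and Kmt2a, had peaks of 4983 and 4824 bp. Of the other DNA methylation genes 5 of 7 had a peak. Uhrf1, whose product guides DNMT1 to replicated DNA, had the widest of these with 4802 bp, followed by Hells with 4214 bp and Uhrf2 with 3709 bp, and the germ cell and early embryo genes Dnmt3l and Dppa3 had none.

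Of the genes for oxidation and removal of methylated cytosine 8 of 9 were marked. The widest were at the repair genes Apex1, with 9030 bp, and Lig3, with 4570 bp. Tet2 followed with 3341 bp, so that of the TET family only Tet1 lacked a peak. Neil2, a DNA glycosylase gene, also had none. All 9 other methyl-CpG-binding protein genes were marked, led by Mbd6 with 10486 bp, Mbd3 with 5515 bp and Mbd5 with 3999 bp.

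All 8 SET1 complex partners of CFP1 had a peak. The catalytic subunit genes Setd1b and Setd1a had 11880 and 3995 bp, and Hcfc1 had 5536 bp. All 9 PRC1.1 partners of KDM2B were marked too, led by Ring1 with 12045 bp, Usp7 with 5250 bp and Bcorl1 with 4817 bp. Nearly all genes of these lists have a CpG island promoter. The shares stand beside 49.4% over all coding genes, and beside 70.2% over coding genes with such a promoter, as a description.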

How the data were processed

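H3K4me3 ChIP-seq of C127 cells (3 replicates) was grouped by the labels. According to the methods of the study, the authors aligned reads to mm10 with bowtie2, discarded reads without a unique position, removed duplicates with SAMtools, called peaks with MACS per replicate against the input, kept those found in every replicate and merged neighbours. Versions are not given in the sources used here. The deposited list has 3 columns, chromosome, start and end, in bp, and no score, so replicates cannot be compared and depth is unknown. A gene whose start recurs elsewhere in the genome can lose reads by the unique-position filter.

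Starts were made 1-based. TSSs, exons and coding sequences came from GENCODE vM21 basic transcripts on 20 chromosomes, and sequence from GRCm38.p6, the same build as mm10. Coding sequences were translated with the standard code. CpG islands were joined windows of 200 bp in which GC made up a fraction of 0.5 or more and CpG reached 0.6 or more of its expected count (177750 islands). Stricter ones were at least 500 bp long with 0.55 and 0.65. The CXXC motif was widened after a first form missed members known to carry the domain. Scripts were tested on simulated peaks and islands. Python 3.11.15, numpy 2.4.6 and matplotlib 3.10.9 were used. The members and lists were chosen with earlier results of these data known, and no statistical test was made. Named were all members with each promoter and gene-body peak, any gene that shares a member's peak and, of each list, the genes without a TSS peak and the 3 with the widest. Alternatives covered the TSS distance, the TSS set, peak width, the joining of promoters, the gene-body rule and the islands. Base sequences on chromosome 18 are not reported here.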

Additional observations from a re-analysis of the deposited data

How the results depend on the processing

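No paired analysis was possible because the replicates were deposited as 1 consensus peak list, and for the same reason no replicate could be left out. Of 32 counts recomputed under alternatives, 32 stayed within 1.5 times the reported count. The 8 genes with a TSS peak became 7 with peaks of at least 1000 bp, which removes Cxxc5, and 7 with the most upstream TSS alone, which removes Dnmt1. The 41 partner genes became 36 with the most upstream TSS alone. Marked promoters were 16 of 20 as reported, 12 of 16 when promoters were joined under 1000 bp, and 20 of 56 with starts of the comprehensive set and RefSeq added, so the marked share fell with the fuller annotation. With those starts, genes with separate TSS peaks rose from 2 to 3 and genes with a peak away from any start fell from 3 to 2, through Kdm2a. Marked promoters with an island were 15, and 11 with stricter islands. Stricter islands from windows of 500 bp, an alternative chosen after seeing the data, gave 15. Of 23 widths recomputed, 22 were unchanged, and that of Tet3 became 4537 bp at the most upstream TSS alone. The list holds no heights, so unmarked means only that no peak was called in every replicate, and promoters under 1 shared peak cannot be told apart. An intronic peak could not be tied to a start where neither annotation has one.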
